A study of Trichoderma reesei with 12 samples.

Results

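The 81 genes described here are abundant transcripts of Trichoderma reesei that were moderately lower in light than in darkness. They were chosen by measured values from 10879 rows of a count table, so that their light and dark levels are a description and not a test. A gene was included if its mean in darkness was at least 300 CPM (the count divided by the total of the library, times 1000000) in both strains. Its mean in light also had to be above 1/4 and at most 1/1.5 of its dark mean in both strains. Genes lying in a run of 4 or more consecutive rows that all had at least 5 CPM in darkness and were at 1/2 or less in light in both strains were left out. Of the 10879 rows, 626 met the minimum in darkness, 147 of these were at 1/1.5 or less in both strains, and 82 lay inside the band. TrG0016W, at 0.406 of its dark level in sor4 and 0.344 in ku80, was left out as part of such a run. All 81 members had enough counts to enter the statistical tests.

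Trichoderma reesei is a filamentous fungus used to make cellulases, and the RNA came from mycelium, its thread-like vegetative tissue. It had grown on cellulose in minimal medium for 96 h at 28 °C, in light or in darkness. Both strains are QM6aΔku80, which lacks a gene of non-homologous end joining, a loss that eases gene targeting. The strain QM6aΔku80Δsor4, called sor4 here, also lacks sor4, a transporter gene of the SOR cluster, which is known for making yellow sorbicillinoids, and its parent QM6aΔku80 is called ku80. The groups were sor4 in light (4 libraries), sor4 in darkness (4), ku80 in light (2) and ku80 in darkness (2). The protocol text of every sample speaks of darkness, whereas the titles and treatment labels separate light from darkness, and these were followed. The labels do not say whether replicates were separate cultures or whether the deletion strain is 1 clone, and p-values cover no more than the variation among the libraries given, part of which may be technical.

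In filamentous fungi, blue light is sensed by photoreceptor complexes of the White Collar type, called BLR1 and BLR2 in Trichoderma, and their output is adjusted by the light-regulated protein ENVOY. Light changes carbon and secondary metabolism and growth in these fungi, and in T. reesei it is known to alter how genes for the breakdown of cellulose are used. The rows carry identifiers without gene names, and 0 of them matched the 9116 genes of the reference table. The members are therefore given by identifier alone, with no function, and neither the row of sor4 nor any marker gene of mycelium could be checked.

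Total counts were between 7844524 and 12027855 per library, and the smallest count of any member in any library was 241, so counting error was small for all of them. The libraries within a group were not equally alike. The chi-square per gene between libraries of a group was 7.29 to 15.8 in sor4 light, 22.1 to 82.8 in sor4 dark, 63.7 in ku80 light and 30.8 in ku80 dark. The largest values in sor4 dark all involved replicate 1, which stood apart for a number of members described below.

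The libraries are bulk RNA, in which fewer cells of a type and less RNA per cell cannot be told apart, and CPM is a share of each library. Together the members held 3.74% to 4.24% of all counts in the sor4 light libraries and 7.74% to 8.71% in the sor4 dark libraries. In ku80 they held 3.26% and 4.13% in light, against 8.12% and 8.47% in darkness. Among members the median light level was 0.476 of the dark level in sor4 (lowest 0.251, highest 0.665) and 0.459 in ku80 (lowest 0.260, highest 0.656). In sor4, 13 members were above 1/4 and up to 1/3 of their dark level, 33 were above 1/3 and up to 1/2, and 35 were above 1/2. In ku80 these numbers were 17, 36 and 28. Every sor4 light library lay below every sor4 dark library for 75 of the 81 members (25.4% of the 8939 rows tested), and the same held in ku80 for 80 members (32.2% of rows). The edgeR test called 78 of the members lower in light in sor4, where it called 28.8% of all rows lower, and 72 in ku80, where it called 22.8%. The rule used these contrasts, so nothing is read from those counts. The 6 members whose groups overlapped in sor4 were TrB0705C, TrB0828C, TrC0415W, TrE0949C, TrE0998W and TrE1049W, and TrE1049W overlapped in ku80 too.

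**Figure D1:**
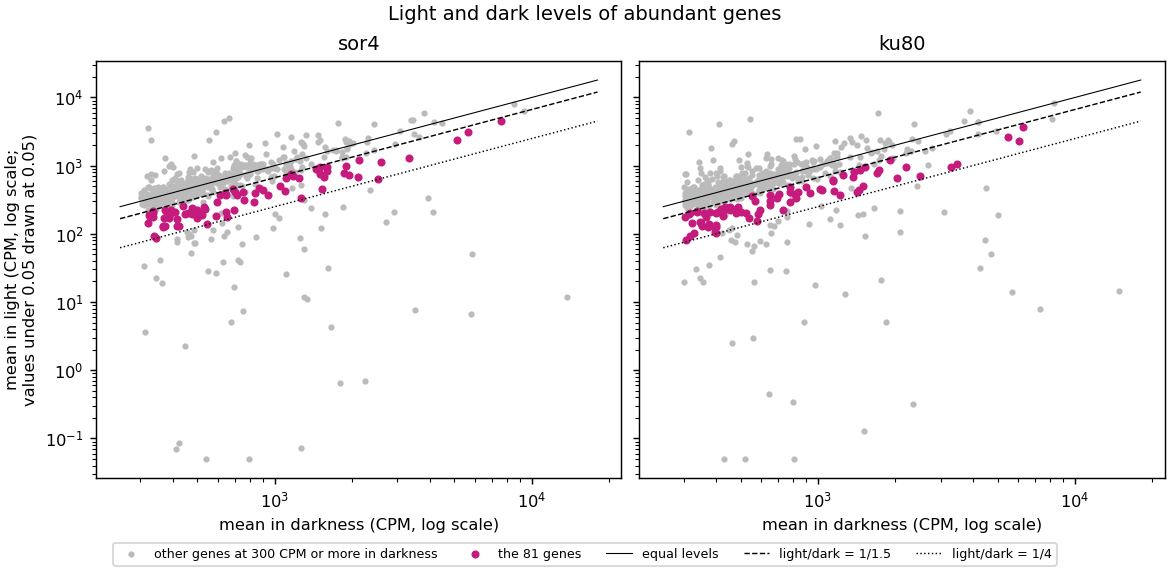
Mean CPM in light (vertical axis, log scale) against mean CPM in darkness (horizontal axis, log scale) for genes at 300 CPM or more in darkness in both strains, in sor4 (left) and ku80 (right). The 81 genes (magenta) lie between the lines for a light level of 1/1.5 and 1/4 of the dark level, and the other 545 genes are grey.

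The members covered a wide range of abundance. Their mean over both strains ran from 83.8 to 4100 CPM in light (median 250.3) and from 321 to 6922 CPM in darkness (median 614). In light, 36 members stayed at 300 CPM or more in both strains. In darkness 25 members had 1000 CPM or more. The 6 most abundant held 31.9% of the members' summed level in darkness. The lengths in the table were multiples of 3 in 97.6% of the rows tested and 97.5% of the members, and are taken as coding lengths. The exceptions among members were TrF0574W (265 bases) and TrG0785W (3238 bases), whose lengths may not be coding lengths. Per kilobase of coding length, the dark level of the members ran from 84.5 to 8301 CPM with a median of 468.

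TrE0998W (1020 bases) was the most abundant member in darkness. It had 4346, 4137, 4846 and 4796 CPM in sor4 light replicates 1 to 4, and 4768, 8869, 8549 and 8049 CPM in sor4 dark replicates 1 to 4. In ku80 it had 2530 and 4807 CPM in light, and 7620 and 4952 CPM in darkness. The sor4 groups overlapped, since dark replicate 1 lay inside the range of the light libraries, while in ku80 the highest light library was just under the lowest dark one. The mean light level was 0.599 of the dark level in sor4 and 0.584 in ku80. Without ku80 light replicate 1 the ku80 ratio was 0.765, and without ku80 dark replicate 1 it was 0.741, both outside the band.

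TrD0455W (675 bases) had the highest dark level per kilobase, at 8301 CPM averaged over the strains. It stood at 2355, 2231, 2553 and 2497 CPM in sor4 light and at 5570, 4439, 5063 and 5449 CPM in sor4 dark. Its ku80 values were 2678 and 1950 CPM in light and 5631 and 6522 CPM in darkness. No light library of either strain reached a dark one, and the light level was 0.470 of the dark level in sor4 and 0.381 in ku80.

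TrB0598W (699 bases) followed per kilobase, at 7950 CPM in darkness. It had 1475, 3815, 3800.2 and 3469 CPM in sor4 light replicates 1 to 4, and 4821, 6269, 5887 and 5571 CPM in sor4 dark. In ku80 it had 870 and 4324 CPM in light, against 5400 and 5555 CPM in darkness. The light libraries lay below the dark ones in both strains, but replicate 1 in light was far below the other light libraries of both strains. The 2 dark ku80 values of TrB0598W differed little, so its ku80 mean ratio of 0.474 joined ratios of 0.159 in replicate 1 and 0.790 in replicate 2, both set against the mean in darkness.

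**Figure D2:**
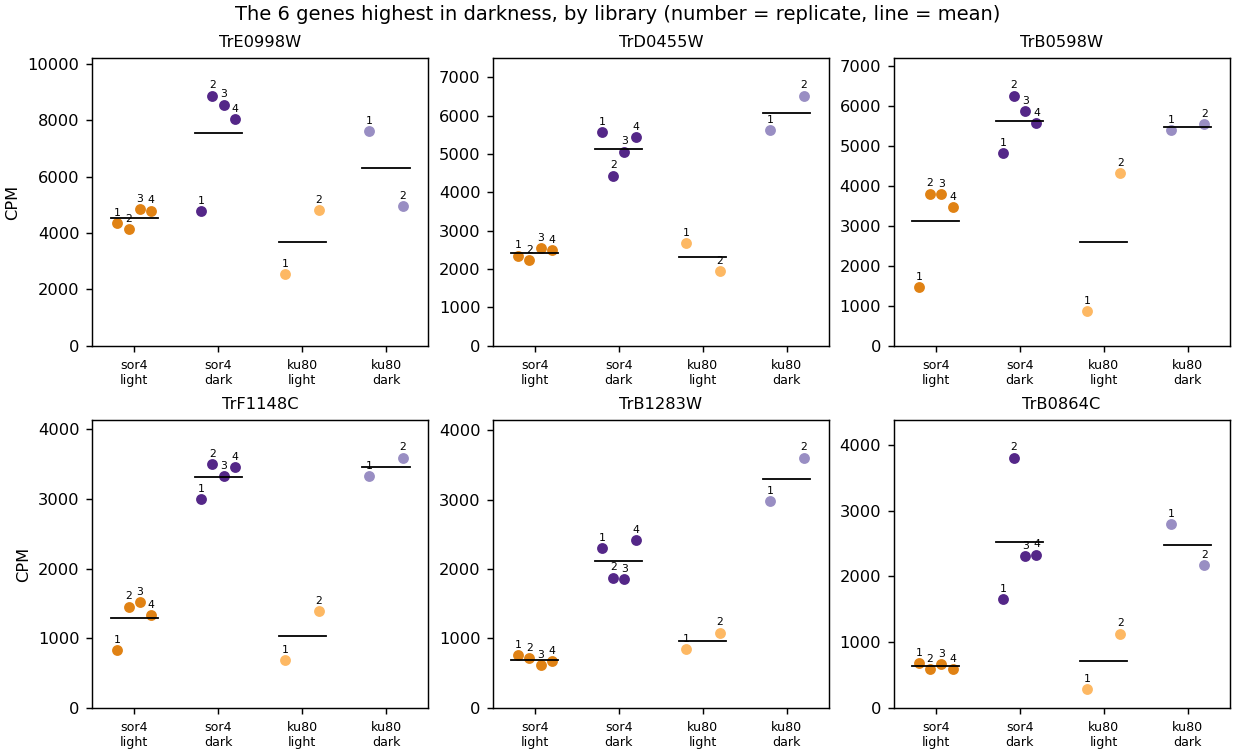
CPM in each library (vertical axis, linear) of the 6 genes with the highest dark mean, by group, where points are libraries labelled by replicate number and black lines are group means. TrE0998W has 1 sor4 dark library (4768 CPM) among the light values, and TrB0598W has light libraries numbered 1 at 1475 CPM in sor4 and 870 CPM in ku80.

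The next 3 members by dark level were lower by larger factors. TrF1148C (726 bases) averaged 1285 ± 316 CPM in sor4 light and 3321 ± 228 CPM in sor4 dark (SD, n = 4 each), and 1039 ± 492 CPM in ku80 light and 3460 ± 190 CPM in ku80 dark (SD, n = 2 each). TrB1283W (1815 bases) averaged 692 ± 61.4 CPM in sor4 light and 2113 ± 292 CPM in sor4 dark. Its ku80 means were 967 ± 167 CPM in light and 3289 ± 443 CPM in darkness, so that both ku80 means were above those of sor4. TrB0864C (1029 bases) had 687, 590, 663 and 596 CPM in sor4 light, and 1657, 3807, 2307 and 2334 CPM in sor4 dark. Its ku80 values were 283 and 1131 CPM in light and 2800.2 and 2171 CPM in darkness. The light values of TrB0864C were close together in sor4 and 4-fold apart in ku80, and no light library overlapped a dark one.

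TrB0864C was also the member nearest to the lower bound of the band, at 0.251 of its dark level in sor4, and TrA1619W, at 0.244 in sor4 and 0.248 in ku80, was just outside it. With TrE1230C and TrB1867C it formed the 3 members with the lowest average ratio, an order that single ku80 libraries moved. The ku80 ratio of TrB0864C was 0.284 with both light libraries, 0.455 without replicate 1 and 0.114 without replicate 2. That of TrB1867C was 0.260 with both, 0.173 without replicate 1 and 0.347 without replicate 2, while that of TrE1230C stayed between 0.239 and 0.286 when any ku80 library was left out. TrE1230C (537 bases) had 80.8 to 92.7 CPM in sor4 light and 267 to 440.5 CPM in sor4 dark. In ku80 it had 82.7 and 77.1 CPM in light, against 334 and 279 CPM in darkness. TrB1867C (936 bases) had 84.8 to 107 CPM in sor4 light and 299.6 to 439 CPM in sor4 dark, with ku80 values of 139 and 69.6 CPM in light, against 329 and 476 CPM in darkness. Both members were near the minimum in darkness and had no overlap between light and dark libraries. At the upper bound TrA0854W was just inside, at 0.665 in sor4, and TrE0849W, at 0.669 in ku80, just outside. At the minimum in darkness TrC0415W was just inside, with 305 CPM in ku80, and TrC1134C just outside, with 299.5 CPM in sor4. TrC0415W (2550 bases) had 204 to 239 CPM in sor4 light and 231 to 514 CPM in sor4 dark, and 197 and 161 CPM in ku80 light, against 317 and 293 CPM in ku80 dark. TrA0854W (1797 bases) had 428 to 469 CPM in sor4 light and 655 to 711 CPM in sor4 dark, and 362 and 414 CPM in ku80 light, against 686 and 725 CPM in ku80 dark. The groups of TrC0415W overlapped in sor4, and those of TrA0854W did not in either strain.

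The members with ratios near the upper bound were steadier between libraries. By the average of both strains, 15 members were at 1/3 or less, 34 above 1/3 and up to 1/2, and 32 above 1/2. The median coefficient of variation (CV, the SD over the mean) in the 4 sor4 light libraries was 9.53%, 9.41% and 5.40% in these bands, and in the 4 sor4 dark libraries 19.5%, 18.2% and 11.1%. Their median dark levels were 564, 537 and 671 CPM. This ordering was not tested.

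The CV was under 10% for 57 of the 81 members in sor4 light and for 21 in sor4 dark. TrC0438W (2763 bases) had the lowest CV in sor4 dark, 1.89%. It had 245, 232, 203 and 205 CPM in sor4 light, with a CV of 9.30%, against 688, 679, 687 and 709.7 CPM in sor4 dark. In ku80 it had 229 and 226 CPM in light, against 685 and 779 CPM in darkness. The light level of TrC0438W was thus 0.320 of the dark level in sor4 and 0.311 in ku80. The longest member, TrE0949C with 4215 bases, averaged 223 ± 14.95 CPM in sor4 light and 375 ± 168 CPM in sor4 dark (SD, n = 4 each), with a CV of 44.7% in darkness, and its groups overlapped in sor4. In ku80 TrE0949C had 183 and 249 CPM in light, against 372 and 303 CPM in darkness. The shortest, TrF0574W with 265 bases, averaged 365 ± 27.9 CPM in sor4 light and 612 ± 62.6 CPM in sor4 dark, and 299.5 ± 3.20 CPM in ku80 light and 652 ± 64.6 CPM in ku80 dark (SD, n = 2 each).

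In sor4 dark replicate 1, members moved apart in both directions. For 10 members this library was below 0.7 of the lowest of the other 3 sor4 dark libraries, and for 5 members it was above the highest of them by the same factor. The other sor4 dark libraries stood apart in this way for at most 1 member in each direction. These members were named after their values were seen. Replicate 1 was that low for 13 and that high for 2 of 379 abundant genes that stayed within 1.5-fold in light. Of 50 abundant genes at least 1.5-fold higher in light, it was that low for 6 and that high for 1. Both sets had the same minimum of 300 CPM in darkness, and their bounds applied in both strains. TrE1049W (1107 bases), with the highest CV of all members in sor4 dark (55.2%), had 615 to 767 CPM in sor4 light, against 381 CPM in sor4 dark replicate 1 and 2353, 1988 and 1491 CPM in the other sor4 dark libraries. TrB0705C (1722 bases), with the second highest (50.7%), had 779 to 1666 CPM in sor4 light, against 652 CPM in dark replicate 1 and 2876 to 3404 CPM in the others. The dark replicate 1 of sor4 was thus below every sor4 light library of both genes.

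The other 8 low members were TrA1485C, TrB0828C, TrB1448W, TrB1539C, TrE0998W, TrE1192C, TrF0935C and TrF0998W. Over all 10 members, replicate 1 stood at 0.196 to 0.571 of the mean of the other 3 libraries. In ku80, dark replicate 2 was below dark replicate 1 for all 10 (0.341 to 0.900 of it, median 0.659), compared with 44 of all 81 members (median 0.988). TrE1049W had 201 and 765 CPM in ku80 light, against 1336 CPM in ku80 dark replicate 1 and 456 CPM in replicate 2. Without ku80 dark replicate 1 its ku80 light level was 1.06 of the dark level, on the other side of equality, and without ku80 light replicate 1 it was 0.854, so that its place in the set rests on each of these libraries. Without sor4 dark replicate 1, the sor4 ratios of the 10 genes were 0.223 to 0.534, against 0.255 to 0.599 with it. The value of 0.223 was that of TrB1539C and lay under the lower bound of 1/4.

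The 5 members high in sor4 dark replicate 1 were TrB0206W, TrC0174W, TrC0415W, TrD0962W and TrE0949C, at 1.71 to 2.02 of the mean of the other 3 libraries. In ku80, dark replicate 2 was below dark replicate 1 for 4 of these 5 as well (0.815 to 1.03 of it, median 0.923). The high members thus did not move the opposite way to the low ones in ku80. TrC0174W (1092 bases) had 158 to 198 CPM in sor4 light, against 1023 CPM in dark replicate 1 and 463 to 614 CPM in the other dark libraries. TrD0962W (2112 bases) had 273 to 309 CPM in sor4 light, against 1206 CPM in dark replicate 1 and 631 to 840 CPM in the others. Without replicate 1 the sor4 ratio of TrC0415W was 0.784 and that of TrE0949C was 0.747, above the bound of the band. Without that library 81 genes met the rule, of which 75 were members. What set this library apart was not tested.

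**Figure D3:**
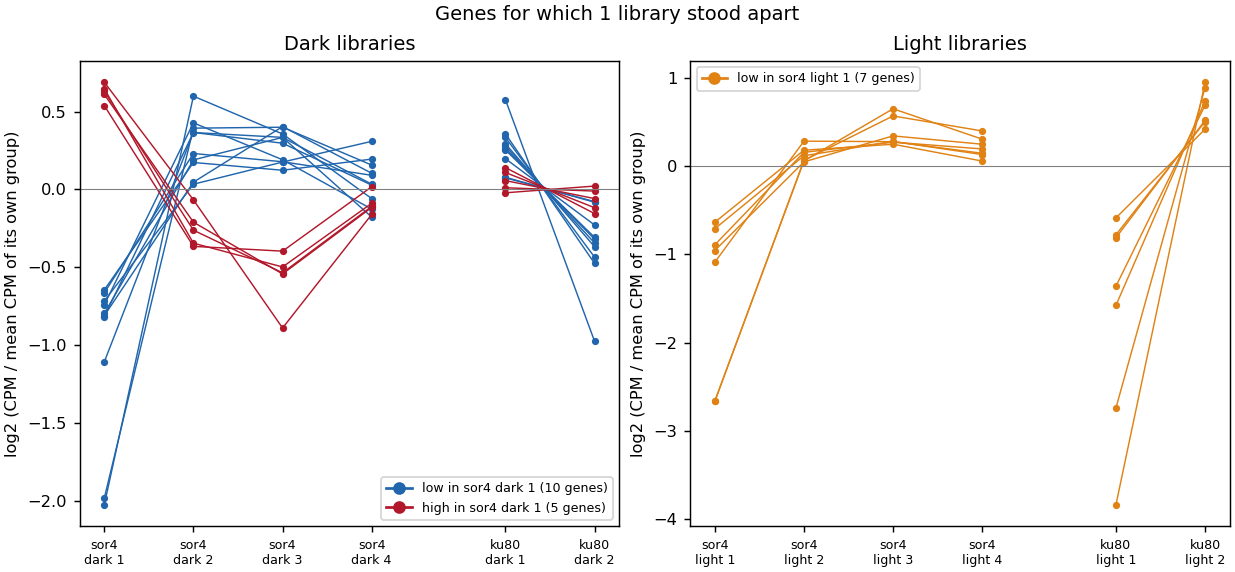
Log2 of CPM over the mean of the gene's own group (vertical axis) in each library, for members that stood apart in sor4 dark replicate 1 (left; 10 low in blue, 5 high in red) and in sor4 light replicate 1 (right; 7 genes). Lines join the values of 1 gene. The 10 blue genes and 4 of the 5 red genes are lower in ku80 dark replicate 2 than in replicate 1, and all 7 genes on the right are also low in ku80 light replicate 1.

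In light, the libraries numbered 1 shared a set of low members. In sor4 light replicate 1, 7 members were below 0.7 of the lowest of the other 3 libraries: TrA1606W, TrB0598W, TrB0628C, TrD1209W, TrE0171W, TrF1148C and TrF1149W. All 7 were also at less than 1/2 of ku80 light replicate 2 in ku80 light replicate 1, where 10 of the 81 members were that low. The same counts over other genes are not given here, so low values in these libraries are not read as particular to the members. At a bound of 1.5-fold, ku80 light replicate 1 was the lower library for 15 of the 81 members. It was also the lower for 14 of the 379 stable genes and 11 of the 50 genes higher in light. TrB0628C had 59.2 CPM in sor4 light replicate 1 and 392 to 556 CPM in the other sor4 light libraries, against 630.0 to 767 CPM in sor4 dark. In ku80 it had 23.8 and 658 CPM in light, against 813 and 834 CPM in darkness. TrE0171W had 71.9 CPM in sor4 light replicate 1 and 475 to 715 CPM in the others, against 1230 to 1862 CPM in sor4 dark. Its ku80 values were 60.5 and 749 CPM in light, and 1415 and 1410 CPM in darkness. For both genes the ku80 dark values were close together and the light values of either strain were not.

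In ku80 the mean ratios of these 7 genes joined a lower and a higher light value. Set against the dark mean, ku80 light replicate 1 stood at 0.0289 for TrB0628C and 0.0429 for TrE0171W, and ku80 light replicate 2 at 0.799 and 0.530. For all 7, the values were 0.0289 to 0.245 in replicate 1 and 0.401 to 0.799 in replicate 2. The other 3 members that low in ku80 light replicate 1 were TrB0864C, TrB1448W and TrE1049W, which were not low in sor4 light replicate 1. Without both light libraries numbered 1, 72 genes met the rule, of which 69 were members, and the median ratio of the 81 was 0.473 in sor4 and 0.468 in ku80. The labels give a replicate number no meaning beyond its group, and whether these libraries share a source was not tested.

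The median CV of the members was above that of genes of like abundance in darkness that held their level in light. Those were the 379 genes at 300 CPM or more in darkness whose light level was within 1.5-fold of the dark level in both strains. The median CV of the members was 7.53% in sor4 light and 17.6% in sor4 dark, against 3.68% and 8.17% for the 379 genes. In 50 genes of the same minimum that were at least 1.5-fold higher in light in both strains, it was 6.36% and 12.6%. Over all 8939 rows tested, with a median dark level of 34.2 CPM, it was 9.74% and 14.5%. In ku80 light, 22 of the 81 members were over 1.5-fold apart between the libraries, 15 lower in replicate 1 and 7 higher, against 16 of the 379 (14 and 2) and 15 of the 50 (11 and 4). The CV was larger in sor4 dark than in sor4 light for 64 of the 81 members (79.0%) and for 88.9% of the 379 genes. The members' dark level had a median of 614 CPM, and that of the 379 genes 487 CPM. These differences were not tested. Choosing the 379 genes for close light and dark means favours genes with little spread, so part of the difference may come from that choice.

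The rule did not compare the strains, but it asked for the same minimum and band in both, and 12 abundant rows in the band in sor4 only and 22 in ku80 only were left out. The rule can therefore leave out genes that differ between the strains, although it sets no bound on a member's strain difference in light or in darkness. The low number of calls among the members is not read as a feature of these genes. None of the 81 members passed edgeR's test between sor4 and ku80 in light (0 of 8939 rows, 0%), and the smallest adjusted p among them was 0.392. An unadjusted p under 0.05 was found for 7 members, 5 higher and 2 lower in sor4, or 8.64% of the members and 8.17% of all rows. DESeq2 (0.593% of the rows it gave an adjusted p) and limma-voom (0.0224% of rows) called 0 members in light. In darkness 0 members passed edgeR's test as well (3 of 8939 rows, 0.0336%), with a smallest adjusted p of 0.208. There, 6 members, 1 higher and 5 lower, had an unadjusted p under 0.05 (7.41%, against 7.75% of all rows). DESeq2 called 2 members in darkness, both lower in sor4 (66 of 8762 rows, 0.753%), and limma-voom 0 (0.0336% of rows). The 95% interval of the strain difference lay within 2-fold in either direction for 69 of the 81 members (85.2%) in light and for 69 in darkness. Over all rows, most of them less abundant, these shares were 73.1% and 75.2%. Among genes with the same minimum in darkness they were higher than in the members. They were 96.6% in light and 98.2% in darkness for the 379 stable genes, and 90% and 88% for the 50 genes higher in light. The median log2 fold change of the members was 0.06 in light and 0.02 in darkness, and over all rows 0 and 0.01.

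TrB1283W had the smallest p in darkness. Its values were 760, 718, 617 and 674 CPM in sor4 light, against 849 and 1085 CPM in ku80 light. In darkness they were 2306, 1876, 1850 and 2418 CPM in sor4, against 2976 and 3602 CPM in ku80. It was the only member for which every sor4 library was below every ku80 library both in light and in darkness. The log2 fold change was -0.47 in light (SE 0.14, adjusted p = 0.403, edgeR) and -0.66 in darkness (SE 0.14, adjusted p = 0.208), and DESeq2 gave it an adjusted p of 0.00667 in darkness. The value in light was -0.65 without ku80 light replicate 1 and -0.30 without replicate 2.

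TrD0178W (1341 bases) had 789, 745, 770 and 749 CPM in sor4 light, against 847 and 728 CPM in ku80 light, where the strains overlapped. In darkness it had 911, 1179, 1216 and 1318 CPM in sor4, against 1727 and 1672 CPM in ku80, with no overlap. Its log2 fold change was -0.03 in light and -0.58 in darkness (SE 0.14, adjusted p = 0.231, edgeR; 0.0232, DESeq2). TrB1093C (855 bases) had the smallest p in light, with 180 to 198 CPM in sor4, against 152 and 148 CPM in ku80. Its log2 fold change there was 0.37 (SE 0.10, adjusted p = 0.392, edgeR). In darkness it had 281 to 376 CPM in sor4, against 322 and 376 CPM in ku80, and the strains overlapped.

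In light, 11 members were above ku80 in all 4 sor4 libraries (9.48% of rows) and 6 were below it (10.5%). In darkness, 1 member was above (8.03% of rows) and 5 were below (6.1%). No member was below in darkness and above in light, or the reverse, in every library.

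**Figure D4:**
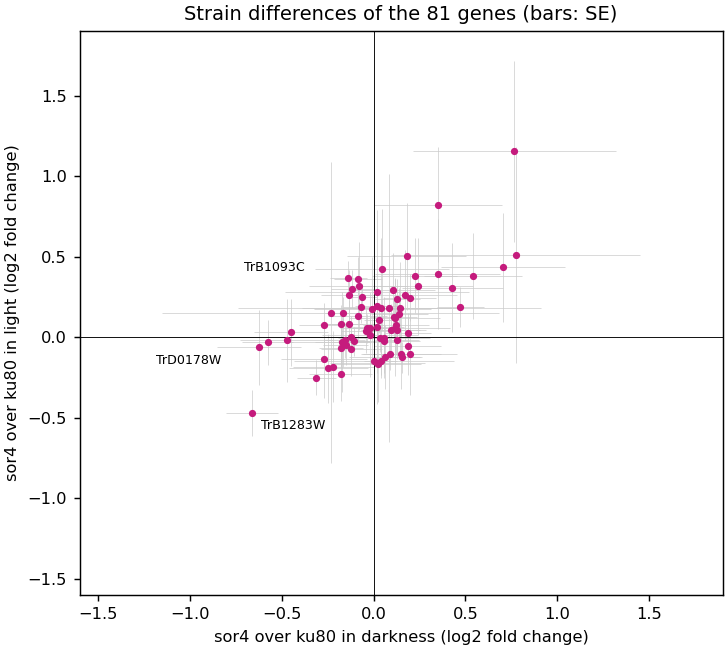
Log2 fold change of sor4 over ku80 in light (vertical axis) against darkness (horizontal axis) for the 81 genes, with SE bars from edgeR. No member passed the test on either axis, and TrB1283W, at -0.47 in light and -0.66 in darkness, lies lowest on both.

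A test of whether the strain difference changed with light compared its value in light with that in darkness. The band of the rule limits how large this quantity can be for the members. None passed (0% of all rows), and TrB1093C had the smallest adjusted p of the members, 0.691. Its difference of log2 fold changes was 0.51 (SE 0.14), and that of TrD0178W was 0.55 (SE 0.20, adjusted p = 0.740). Below an unadjusted p of 0.05 were 6 members (7.41%, against 6.59% of all rows), all with a positive difference. Such a difference was positive for 25 of 26 such genes among the 379 abundant genes of stable level described above. Among the 50 genes higher in light it was positive for 0 and negative for 2, and over all rows positive for 316 and negative for 273. DESeq2 (0.108% of the rows it gave an adjusted p) and limma-voom (0% of rows) called 0 members. The difference fitted by edgeR was above 0 for 56 of the 81 members, meaning a fitted light to dark ratio nearer to 1 in sor4 than in ku80. It was above 0 for 4490 of 8939 rows. By the ratios of CPM, the ratio was lower in ku80 for 51 members (63.0%). Among tested rows with counts in every group this share was 43.5%. The number of members above 0 in edgeR was 43 without ku80 dark replicate 1 and 47 without ku80 light replicate 1.

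Coding length and place in the table were not part of the choice, except for the runs left out. The members had a median length of 1458 bases, against 2016 for the 379 genes of stable level, 2228 for the 50 genes higher in light and 1251 for all rows tested. Of the members, 42 had identifiers ending in W and the others in C. The letter B after Tr, in 20 members, was the most frequent, with 18.5% of the 108 abundant rows of that letter, and the letters C and E, with 8 and 9 members, had the lowest shares (9.09% and 9.38%). The remaining letters lay between these, from 11.6% for G to 15.6% for F, and the shares were not tested. The files do not say what these letters stand for.

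Members had few other members beside them. Only 2 pairs were in consecutive rows, TrB0684C with TrB0685W and TrF1148C with TrF1149W, and in both the first identifier ends in C and the second in W. TrB0684C (414 bases) averaged 661 ± 28.6 CPM in sor4 light and 1109 ± 78.0 CPM in sor4 dark (SD, n = 4 each), and 586 ± 90.9 CPM in ku80 light and 1142 ± 8.64 CPM in ku80 dark (SD, n = 2 each). TrB0685W (408 bases) averaged 698 ± 12.6 CPM in sor4 light and 1175 ± 117 CPM in sor4 dark, and 615 ± 110 CPM in ku80 light and 1139 ± 111 CPM in ku80 dark. These neighbours had nearly the same level and the same ratio, 0.596 and 0.594 in sor4 and 0.513 and 0.540 in ku80. TrF1148C and TrF1149W shared the low value in both light libraries numbered 1.

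Rows beside the members were often lower in light too, as they were beside lower rows of the whole table. Of 107 neighbouring rows with at least 5 CPM in darkness, 35 (32.7%) were at 1/1.5 or less in both strains. This share was 17.2% among all rows with at least 5 CPM in darkness, and 7.99% among the neighbours of the 379 stable genes. For the neighbours of all lower rows of the table, runs included, the share was 36.1%. Where the first identifier of a neighbouring pair ended in C and the second in W, 15 of 28 neighbours of members were lower (53.6%, against 48.5% for all lower rows). In the opposite arrangement 5 of 28 were lower (17.9%, against 29.3%), and with equal letters 15 of 51 (29.4%, against 33.0%). These shares were not tested. The strand setting of the counting is not given in the sources used here, so reads of overlapping neighbours cannot be told apart.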

How the data were processed

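RNA of 12 libraries was extracted with a plant RNA kit, depleted of ribosomal RNA and made into stranded libraries, per the labels' protocols. HISAT2 2.2.1 is named in the submitters' processing notes. The authors deposited 1 table of raw counts per gene, which is named after featureCounts. For genome build, annotation and strand setting the entry is: not given in the sources used here. From the counts, CPM was computed on the column totals, and ratios are of group means. Strain effects were tested with edgeR 4.0.16 in R 4.3.3 (TMM normalization, default filter by group, quasi-likelihood test, 4 group means over all 12 libraries). It tested 8939 rows, with 99.97% or more of every library's counts, and adjusted p by Benjamini-Hochberg over all of them, with a threshold of 0.05. The fit was also run on simulated counts drawn with the spread that it estimated from these data. No simulated library was made to stand apart, so that run does not show how the fit handles such libraries. Groups come from the titles, and each column was matched to its sample by the description.

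The members and lists were chosen with earlier results of these data known. Named members are the 6 highest in darkness, the 3 highest per kilobase, the 3 with the lowest ratio, those at each bound, the 2 with the smallest p in each strain comparison, the 2 highest and the lowest CV in sor4 dark, the longest and shortest, and a pair in consecutive rows; the rest were named after their values were seen. Alternatives were limma-voom (limma 3.58.1), DESeq2 1.42.0, scaling by library size or by size factors, other filters on low counts, a fit of the compared groups only, a replicate block, leaving out single libraries or the 20 most abundant rows, and other bounds of the rule; leaving out both light libraries numbered 1 was added after the data were seen.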

Additional observations from a re-analysis of the deposited data

Results flagged for a closer look

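For the 19 members named by rule and the members' summed share of counts, both sor4 groups, of 4 libraries each, were searched for 1 library lying far from the rest. Of 40 such sets 5 were marked, where chance marks about 1 in 20 sets that are independent and unselected. Some of these members were named by their values in these libraries, and the sets share libraries. The 5 marks can therefore not be set against that rate. In sor4 light replicate 1, TrB0598W stood at 1475 CPM, against 3469 to 3815 CPM in the others. TrB1867C had 439 CPM in sor4 dark replicate 1 and 299.6 to 313 CPM elsewhere in its group. In sor4 light replicate 3, TrA0854W stood at 428 CPM, against 463 to 469 CPM. In sor4 dark replicate 4, TrF0574W stood at 706 CPM, against 575 to 591 CPM. Summed over the members, sor4 dark replicate 1 held 7.74% of its counts, whereas the other 3 libraries held 8.64% to 8.71%.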

How the results depend on the processing

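The count of members called in darkness was 0 in edgeR under every alternative of scaling, filter, libraries and block, 0 in limma-voom and 2 in DESeq2; in light and for the difference of strain effects it was 0 under every alternative run. Over all rows, DESeq2 called 52 in light, 66 in darkness and 8 for the difference, against 0, 3 and 0 in edgeR. Leaving out single libraries gave 0 to 110 rows in light (110 without ku80 light replicate 1, 14 without replicate 2), 1 to 22 in darkness (22 without ku80 dark replicate 1, and 8 when sor4 dark replicate 1 was dropped) and 0 to 34 for the difference (34 without ku80 light replicate 1), none of them members. The rule gave 89 genes with TMM-scaled CPM and 92 with median-of-ratios size factors, 76 of them members in each case. A minimum of 500 CPM gave 45 genes and an upper bound of 1/2 gave 42; leaving out single libraries gave 66 to 84, the lowest without ku80 dark replicate 1. With each library left out in turn the median ratio was 0.467 to 0.505 in sor4 and 0.418 to 0.470 in ku80; the value of 0.505 came without sor4 dark replicate 3 and that of 0.418 without ku80 light replicate 2, and the cause was not tested. The log2 fold changes of TrB1283W and TrD0178W in darkness were -0.66 and -0.57 in DESeq2, which called them. Over all alternatives the adjusted p in darkness ran from 0.00667 to 0.833 for TrB1283W and from 0.0232 to 0.766 for TrD0178W. The replicate numbers were not taken to pair the samples, because no label says so and none of the correlations of the deviations of same-numbered libraries was over 0.1. These correlations were -0.01 to 0.06 between sor4 light and dark and -0.11 between ku80 light and dark. Between sor4 and ku80 they were 0.098 and 0.01 in light and -0.23 and -0.19 in darkness. Whether the light libraries numbered 1 share a source was not tested. A replicate block left 0 members called in darkness, in light and for the difference, and ratios taken within replicates 1 and 2 had a median of 0.479 in sor4 and 0.451 in ku80. With 2 ku80 libraries per condition, a lone ku80 library left in a fit took its spread from the other groups. Every member had at least 241 counts in each library.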
